A study of Mus musculus with 4 samples.

Results

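The genes described here are the small nucleolar RNA (snoRNA) and small Cajal body RNA (scaRNA) genes that the authors tied to differential N6-methyladenosine (m6A) peaks between GR-transfected and control MIN6 cells, together with the genes that contain them. Members were all distinct gene IDs of the deposited gene table whose symbol starts with Snora, Snord or Scarna, and there were 26 of them among 9225 listed IDs. MIN6 is an insulin-secreting mouse insulinoma line. The arms were MIN6 cells that received a vector expressing GR, a label read here as the glucocorticoid receptor, and MIN6 cells that received a control vector. All dishes were treated alike otherwise, with 10 µg of plasmid and 12 µl of Lipofectamine 2000, and RNA was taken 24 h later. The share of cells that took up a plasmid is not given in the labels. Fragments of about 100 nt were pulled down with an anti-m6A antibody, and each arm gave 1 m6A-IP library and 1 input library, 4 in all.

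The gene table names genes and holds no level, fold change or p-value for them, and no file gives values per library. The direction and size of the m6A change of every snoRNA gene are therefore unknown here, the sequencing depth is unknown, and with 1 library of each kind per arm nothing below has a replicate check. The members were chosen by their presence in this list of differential peaks, so every count is a description without a test. RNA came from whole dishes, so a change in the share of cells and a change per cell cannot be told apart. Of 12 beta-cell marker genes, 9 were listed, where 26.3% of all protein-coding genes were. Among them were Slc30a8 on 6 lines, Mafa on 4 and Nkx2-2 on 4, while Ins2, Iapp and Neurod1 were not listed. A place in a list of differential peaks, without levels, does not measure expression and gives only a weak check of the cell type.

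snoRNAs are short nucleolar RNAs that guide chemical changes of other RNAs by base pairing. Those of the box C/D class direct 2′-O-methylation and those of the box H/ACA class direct pseudouridylation, mostly of ribosomal RNA, whereas scaRNAs guide the same changes on spliceosomal RNAs in Cajal bodies. In mammals most are cut out of the introns of a host gene, often one for a ribosomal or nucleolar protein or a long noncoding RNA of the Snhg (snoRNA host gene) group, so that reads from an unspliced host can cover a snoRNA gene.

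Some snoRNA genes also hold a microRNA hairpin, and these are the places where the sequence of the region can be shown. Of the named snoRNA and scaRNA genes, 7 share bases with a hairpin in RefSeq (GRCm38.p6, the assembly behind mm10). In 3 of these pairs 1 partner was listed, in 4 neither was found, and in no pair were both. With 17.3% of named snoRNA and scaRNA genes and 21.0% of microRNA genes listed, few pairs with both would be looked for among 7. Mir3084-2, which overlaps Snora19, matched no gene ID and could not be looked up, so its pair is among the 4 by Snora19 alone. The 3 hairpins with a listed partner are printed 5′ to 3′, with the bases that lie inside the snoRNA gene in capitals. Mir1291 covers chr15:98519762-98519878 on the minus strand and overlaps Snora34, Mir1843b covers chr1:159340358-159340423 on the plus strand and overlaps Scarna3a, and Mir1843a covers chr12:80391613-80391677 on the minus strand and overlaps Scarna3b.
Mir1291: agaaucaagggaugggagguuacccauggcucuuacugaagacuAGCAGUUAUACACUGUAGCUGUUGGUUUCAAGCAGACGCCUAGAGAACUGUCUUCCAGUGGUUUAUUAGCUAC
Mir1843b: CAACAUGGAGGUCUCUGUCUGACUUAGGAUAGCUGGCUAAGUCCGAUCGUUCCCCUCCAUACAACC
Mir1843a: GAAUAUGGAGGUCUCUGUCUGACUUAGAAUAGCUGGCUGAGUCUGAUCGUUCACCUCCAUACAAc

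Snora34 was listed on 1 line and Mir1291 was not listed, although they share 73 bases of a 118-base snoRNA gene. In the pairs with a scaRNA gene the microRNA was the listed partner. Mir1843b was listed on 1 line and Scarna3a, which contains all 66 bases of the hairpin, was not. Mir1843a was listed on 1 line and Scarna3b, which contains 64 of its 65 bases, was not. At these places the table names 1 of 2 overlapping genes, and the files do not show to which RNA the peak belonged. The m6A consensus DRACH (a base other than C, then A or G, then A and C, then a base other than G), searched on the RNA strand, had 2 matches in the Mir1291 hairpin and 1 in each Mir1843 hairpin. In the Mir1291 hairpin, the match AGACU lies outside Snora34, the listed partner, and the match GAACU lies inside it. At least 1 match was found in 74.4% of the 1005 mouse hairpins in RefSeq, so a match sets none of these hairpins apart.

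The 26 members were 11 box H/ACA, 13 box C/D and 2 scaRNA genes. They made up 17.3% of the 150 named snoRNA and scaRNA gene IDs of the reference, close to the 16.6% of all 55450 gene IDs with a symbol that were listed. In RefSeq's whole snoRNA class, unnamed gene models included, 9.36% of 1047 genes were listed. By class, 26.2% of 42 box H/ACA genes, 13.1% of 99 box C/D genes and 22.2% of 9 scaRNA genes were listed, and the difference between classes was not tested. Part of the low box C/D share is the Snord116 repeat, an imprinted cluster with 17 genes in the reference, none of them listed. Among the other classes in RefSeq, 21.0% of 1187 microRNA genes, 10.4% of 925 spliceosomal and related snRNA genes, 13.3% of 4756 lncRNA genes and 26.3% of 21343 protein-coding genes were listed.

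**Figure D1:**
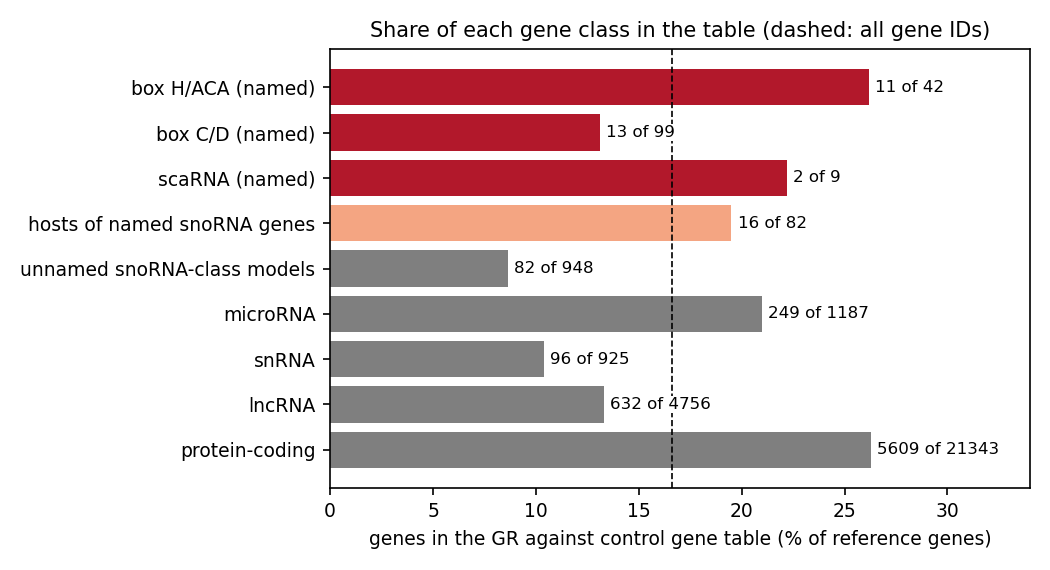
Share of each gene class found in the GR against control gene table (% of reference genes, horizontal axis), with the number listed of the number in the reference beside each bar and the share of all gene IDs (16.6%) as a dashed line. Box H/ACA (26.2%) and scaRNA genes (22.2%) lie above the line and box C/D genes (13.1%) below it; no error can be given.

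The number of lines per gene was small. The sources used here do not say whether a line is a peak, so several lines may but need not mean several peaks. Snora73a, Snora7a and Snord8 had 3 lines each, the most of any member. Another 8 members had 2 lines, namely Snora20, Snora23, Snora30, Snord1a, Snord11, Snord35a, Snord82 and Scarna8. The remaining 15 had 1 line, namely Snora9, Snora28, Snora31, Snora34, Snora43, Snora75, Snord42a, Snord57, Snord61, Snord65, Snord66, Snord69, Snord89, Snord95 and Scarna6. The 40 lines gave a mean of 1.54 per member, against 1.85 over all listed IDs, whose highest value was 52. Members were on 1 line in 57.7% of cases and all listed IDs in 55.6%. No member had 4 or more lines, as 9.69% of all listed IDs did.

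Snora73a (chr4:132352775-132352979, 205 bases) is a copy of the U17 snoRNA, which serves in the cutting of the ribosomal RNA precursor rather than in pseudouridylation. Its neighbour Snora73b, a near-identical copy of 205 bases in the same host, was not listed, and how reads were split between the copies is not known. Snora7a (chr6:115807975-115808103, 129 bases) lies in Rpl32, a gene for a protein of the large ribosomal subunit. Snord8 (chr14:52209786-52209884, 99 bases) corresponds to a human snoRNA that guides 2′-O-methylation of the U6 spliceosomal RNA. It was the single member spanned by 2 other genes, the lncRNA gene Gm26590 and the longer Chd8, which encodes a chromatin remodelling ATPase.

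The members lay on 12 chromosomes, with 5 on chromosome 1 and 4 on chromosome 11. Listed genes had a median length of 120 bases in the box H/ACA class (61 to 205, n = 10), against 121 for those not listed (n = 29). In the box C/D class the medians were 63.0 bases for listed genes (45 to 99, n = 13) and 78.0 for those not listed (n = 79). Snora9 has no entry in the RefSeq table and so no position here. Snora43 stands for 2 gene IDs in the reference, of which 1 was listed.

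Of the 26 members, 24 lay wholly inside another gene, in 23 hosts. The exceptions were Snora9, which has no position, and Snord89, whose nearest protein-coding neighbours Cnot11 and Rnf149 lay 1866 and 2454 bases away and were not listed. The host is the shortest protein-coding or lncRNA gene that spans the snoRNA gene, on either strand, since the RefSeq table used gives no strand for snoRNA genes. Of the hosts, 22 could be matched to a gene ID, and the exception was Snhg7, the host of Snora43.

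Listed were 5 of these 22 hosts (22.7%), close to the 19.5% of the 82 matched hosts of all named snoRNA genes. Of the 22, 4 of 18 protein-coding hosts (22.2%) and 1 of 4 lncRNA hosts (25.0%) were listed. Hosts none of whose snoRNA genes was listed were themselves listed in 11 of 60 cases (18.3%). The 5 hosts were Rpl32 on 1 line with Snora7a on 3, Kansl2 on 2 lines with Snora34 on 1, Rpl13a on 2 lines with Snord35a on 2, Nop56 on 1 line with Snord57 on 1, and Gm26590 on 2 lines with Snord8 on 3. Snora7a and Snord8 thus had more lines than their hosts, Snora34 fewer, and Snord35a and Snord57 equal numbers. Chd8, which also spans Snord8, was on 1 line. Kansl2 belongs to the NSL histone acetyltransferase complex, Rpl13a is a protein of the large ribosomal subunit, and Nop56 is a core protein of the box C/D particle itself.

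The other 17 matched hosts were not listed, though a snoRNA gene inside them was. They include genes for the ribosome and translation: Rpl23a (Snord42a), Rack1 (Snord95), a scaffold protein on the small ribosomal subunit, Eif5 (Snora28) and Eif4g1 (Snord66), both initiation factors, and Tpt1 (Snora31), the translationally controlled tumour protein. Nucleolar hosts not listed were Ncl (nucleolin, Snora75 and Snord82), Gnl3 (nucleostemin, Snord69) and Nop58 (Snord11), the partner of Nop56 in the box C/D particle. Hosts with other roles were Tcp1 (Snora20), a subunit of the CCT chaperonin, Ipo7 (Snora23), a nuclear import receptor, Srcap (Snora30), a chromatin remodelling ATPase, Rbmx (Snord61), an RNA-binding protein, Haus6 (Scarna8), part of the augmin complex of the spindle, and Atg16l1 (Scarna6), of the autophagy conjugation machinery. The noncoding hosts Snhg3, Snhg16 and 2410006H16Rik were not listed either. In every one of these genes the table named the small RNA and left out the gene around it. Most snoRNA hosts were left out in any case, since 19.5% of the matched hosts of all named snoRNA genes were listed, close to the 22.7% here.

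**Figure D2:**
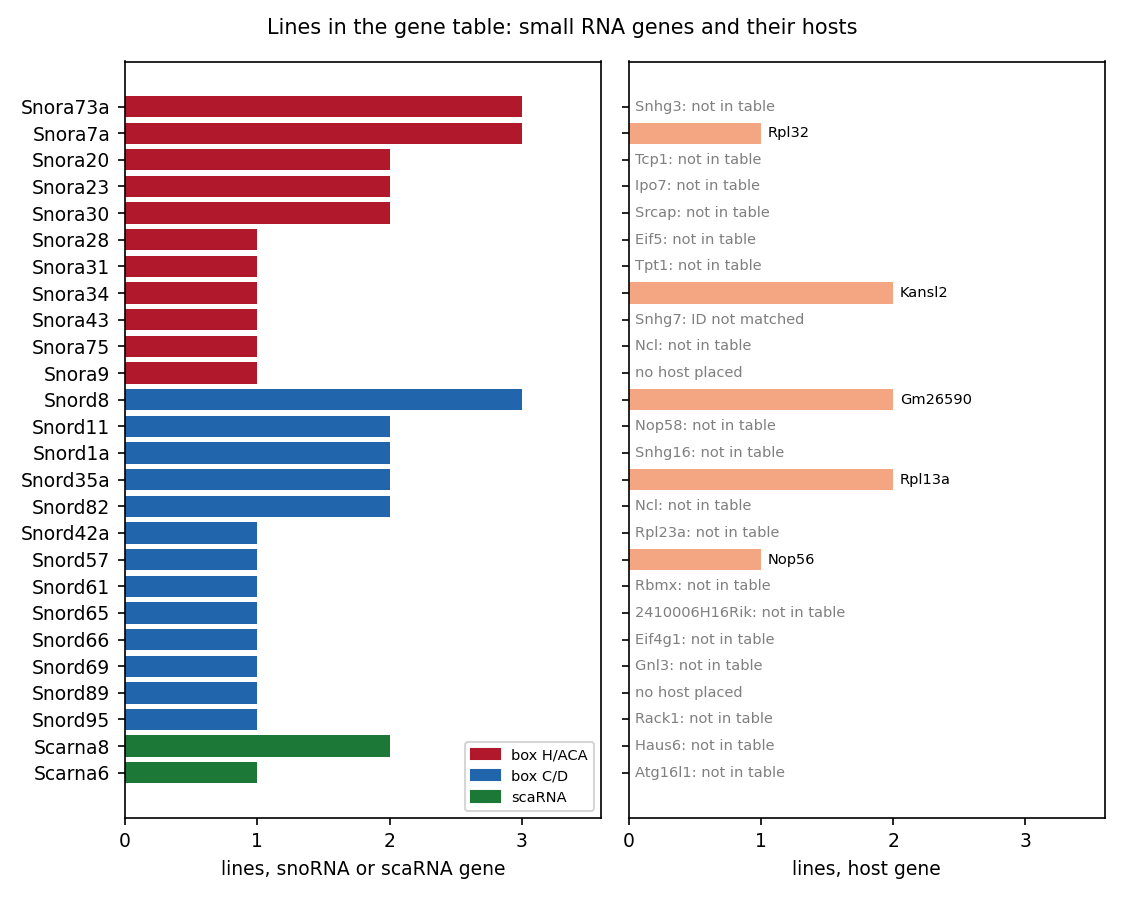
Lines in the gene table for each of the 26 snoRNA and scaRNA genes (left, coloured by class) and for the gene that spans it (right); both horizontal axes count lines. Bars on the right appear for 5 hosts, and the highest value on the left is 3 lines.

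In the other direction, 11 listed hosts contained snoRNA genes of which none was listed. The lncRNA gene Gm17344, host of Snord71, had the most lines of any snoRNA host, 5. Snx5, a sorting nexin with Snord17 inside, had 3. Those with 2 lines were Ccar1 (Snord98), Rpl13 (Snord68), Rpl39 (Snora69), Tsr1 (Snord91a) and Zfas1 (Snord12). Rc3h2, Rpsa and Snhg14 were among those with 1 line. Snhg14 alone contains 18 named snoRNA genes, 17 of them Snord116 copies. Among the ribosomal protein genes that host a named snoRNA, 5 of 24 were listed (20.8%), below the 26.3% of protein-coding genes. Of all protein-coding hosts of named snoRNA genes, 12 of 65 were listed (18.5%).

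Counted per small RNA gene, the matched host was listed for 5 of 23 listed snoRNA genes (21.7%) and for 33 of 105 not listed (31.4%). Without the Snord116 copies, which share Snhg14 as host, the share for those not listed was 16 of 88 (18.2%). MicroRNA genes gave 66 of 222 (29.7%) for listed ones and 97 of 634 (15.3%) for those not listed. Listed snoRNA genes thus had a listed host about as often as other named snoRNA genes outside the Snord116 cluster. All these counts come from 1 contrast, and genes that share a host are not independent.

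Several hosts hold more than 1 snoRNA gene. Each was taken because it holds a listed one, so at least 1 per host was fixed by the choice, and the count of hosts with exactly 1 is to be read beside the 17.3% of all named genes that were listed. Of the 23 hosts, 12 contain 2 or more named snoRNA genes, 29 in all, and 13 of these were listed. In 11 of the 12 hosts exactly 1 snoRNA gene was listed. Rpl13a has 4, which are known in mammals for a part in the cellular response to lipid and oxidative stress. Snord35a was listed on 2 lines, and Snord32a, Snord33 and Snord34 were not. In Snhg16, Snord1a was on 2 lines, and Snord1b and Snord1c were not listed. In 2410006H16Rik, Snord65 was on 1 line, and Snord49a and Snord49b were not listed. Ncl was the exception, with both Snora75 on 1 line and Snord82 on 2.

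The listed gene was usually the one farthest from the start of its host. Strand was known from the RefSeq start windows for 10 of the hosts with exactly 1 listed snoRNA gene among several, and in 9 of them (90.0%) the listed one was the last in the direction of transcription. These were 2410006H16Rik, Gnl3, Kansl2, Nop56, Nop58, Rack1, Rpl13a, Snhg16 and Snhg7. Snord11 lay at 74.9% of the length of Nop58, where the unlisted Snord70 lay at 26.5%. Snord57 lay at 74.6% of Nop56, where Snord110 lay at 23.8%. Snord35a lay at 74.0% of Rpl13a, and the unlisted Snord34, Snord33 and Snord32a at 66.3%, 57.8% and 41.5%. The exception was Snhg3, where Snora73a at 46.2% was listed and its near-copy Snora73b at 72.0% was not. The 10 hosts hold 24 named snoRNA genes, so the last gene would often be the listed one even if position played no part. The order was noticed in the data and was not tested.

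**Figure D3:**
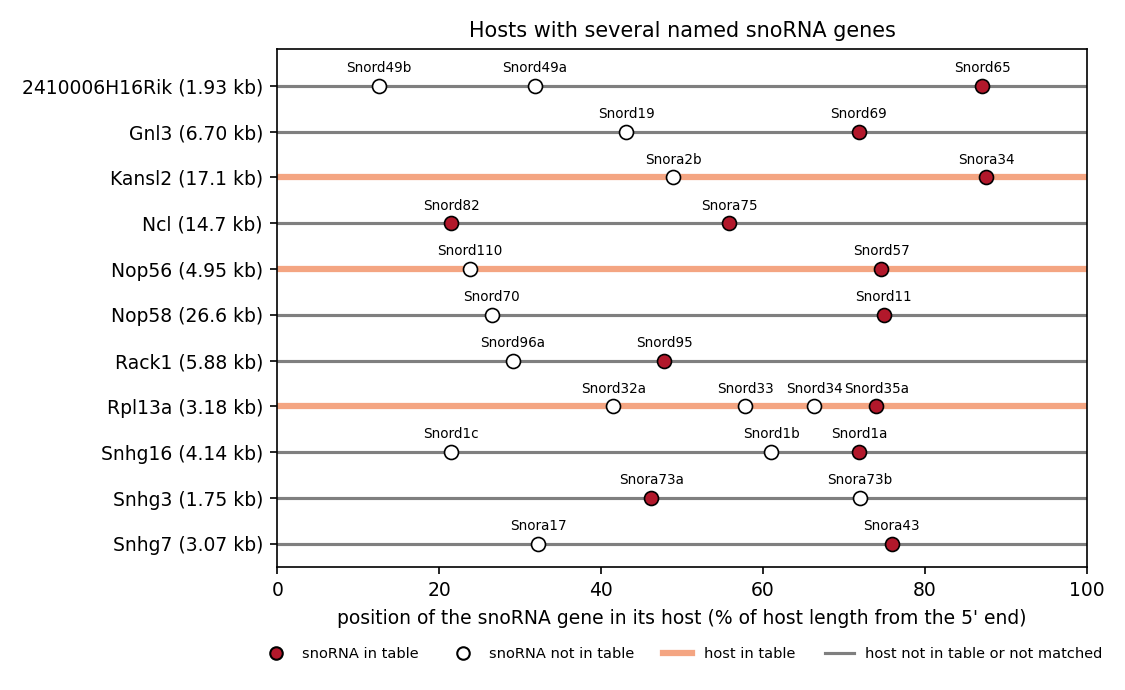
Position of each named snoRNA gene along its host (% of host length from the 5′ end, horizontal axis) for the 11 hosts with several named snoRNA genes and a known strand; filled circles are listed genes, open circles are not, and orange lines are listed hosts. The filled circle is the last in the row in 9 of the 10 hosts that have exactly 1, and Ncl has both filled.

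With the Snord116 copies left out of the comparison, listed genes with a known host strand lay further along the host as a percentage of its length. In bases they lay no nearer its end. The 20 listed genes lay at a median of 72.7% of their host (quartiles 47.4 and 75.3, range 16.2 to 89.3), against 48.6% for 77 named snoRNA genes not listed (quartiles 32.2 and 67.7). The 77 do not include the 17 Snord116 copies, though Snord64 in the same host, Snhg14, is among them. The median distance to the 3′ end of the host was 2.59 kb for listed genes and 2.14 kb for these 77. No median was computed with the Snord116 copies, so both orders may differ with them. Within the hosts of the listed genes, the 14 genes not listed lay at a median of 36.9%. Of the 20, 14 lay beyond the middle of the host and 12 beyond the 70% mark. The highest positions were those of Snora31 at 89.3% of Tpt1, Snora34 at 87.6% of Kansl2 and Snord65 at 87.1% of 2410006H16Rik. The lowest were those of Snord61 at 16.2% of Rbmx and Snord82 at 21.5% of Ncl. Listed microRNA genes lay at a median of 73.1% of their host (n = 192), against 52.3% for those not listed (n = 557). By the same percentage, unnamed gene models of the snoRNA class ran the other way, with 51.1% for listed models (n = 46) and 64.2% for models not listed (n = 410). By distance to the 3′ end of the host, the order of the unnamed models was reversed, with medians of 16.1 kb for listed and 122 kb for unlisted ones. For microRNA genes the medians were 6.47 kb for listed and 19.6 kb for unlisted ones, so listed ones lay nearer the 3′ end by both measures. For the named snoRNA genes without the Snord116 copies and for the unnamed models, which ones lay nearer the 3′ end thus depends on the measure.

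**Figure D4:**
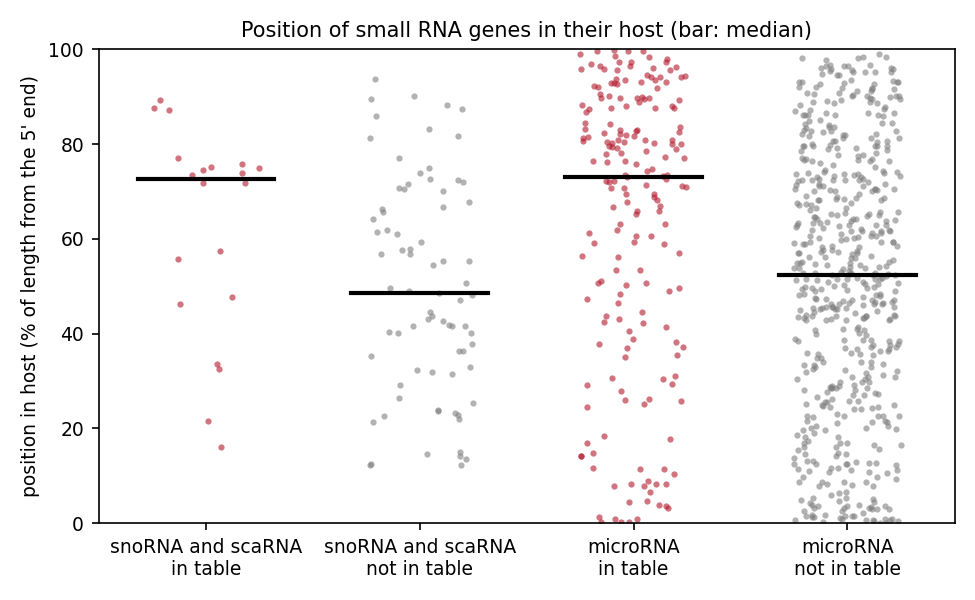
Position of small RNA genes along the host (% of length from the 5′ end, vertical axis), one point per gene with the median as a bar, for snoRNA and scaRNA genes and for microRNA genes in and not in the gene table. Medians are 72.7% and 48.6% for snoRNA and scaRNA genes and 73.1% and 52.3% for microRNA genes. The Snord116 copies are not among the points. Points are spread sideways only to keep them apart.

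Hosts of listed snoRNA genes were of moderate length. Their median was 8.65 kb (1.75 to 49.2 kb, n = 23), against 5.04 kb for the other hosts (n = 60) and 17.6 kb for protein-coding genes as a whole. Snhg3 was the shortest at 1.75 kb and Srcap the longest at 49.2 kb. Many genes of the translation machinery begin with a 5′ terminal oligopyrimidine (TOP) run, a C followed by further C or T bases, so 19 hosts with a RefSeq start window were searched for a C as the very first base followed directly by 4 bases that are each C or T, on the gene's strand. Runs that begin further in, as in Rpl13a and Snhg16, were not counted. A match was found in 3 of 19 (15.8%), against 2.51% of all 32851 start windows. Hosts whose snoRNA genes were not listed were not counted apart, so the share cannot be called particular to these hosts. The first 30 bases are printed. The hosts with a match are shown first and then Rpl13a, which holds the most snoRNA genes among the hosts of members, with the pyrimidine run at the first base in capitals. Their windows are chr11:48800360-48800389 (plus strand), chr7:110018315-110018344 (plus), chr2:26640215-26640244 (minus) and chr7:45128716-45128745 (minus).
Rack1: CTTTTTCTCCacagggtcgtggtggcagcc
Ipo7: CCTTTCgcgccggttgccgctgcggagcgc
Snhg7: CTCTCggcagccatggcggctctatgtttg
Rpl13a: gacctcctcctttcccaggcggctgccgaa

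Rack1 had a run of 10 pyrimidines, Ipo7 of 6 and Snhg7 of 5. Neither Rack1 nor Ipo7 was listed, and Snhg7 could not be looked up. The Rpl13a window begins with a purine and had no match at its first base. A start site a few bases off would change this count, and the letters say nothing about the use of the start in MIN6 cells.

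In hand-written lists, the proteins that build and use snoRNA particles were listed more often than the snoRNA genes, a different class of gene. Over 6 lists with 69 genes in the reference, 31 genes were listed (44.9%), against 26.3% of protein-coding genes, with no test of the difference. The total of genes with a peak that the authors state for GO is 48.3% of its background. That total, 10022, exceeds the 9225 distinct listed IDs, so it cannot be a count of distinct listed genes. Whether 44.9% is high was not tested, and the lists were chosen with earlier results of these data known. Of the box C/D core, Nop56 and Snu13 were on 1 line each, and Nop58 and the methyltransferase Fbl were not listed. Of the box H/ACA core, Nhp2 was on 2 lines and Gar1 on 1, and Nop10 and the pseudouridine synthase Dkc1 were not listed. The catalytic subunit was thus missing from the table for both particles.

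In the scaRNA particle and Cajal body list 4 of 8 genes were listed. Nolc1, the nucleolar and coiled-body phosphoprotein that accompanies snoRNAs, had 4 lines, and Wrap53, which carries scaRNAs to Cajal bodies, had 1. The assembly list had 4 of 11, led by the zinc-finger factor Znhit3 on 3 lines, with Nufip1 and Pih1d1 on 2 each, while the ATPases Ruvbl1 and Ruvbl2 were not listed. The list of U3 snoRNP and pre-rRNA processing factors had 12 of 28. Emg1, a methyltransferase of the small ribosomal subunit RNA, had 5 lines, the most in any of these lists, and Utp3 had 3. The list for snoRNA end processing had 7 of 14, all on 1 line, including the exosome nucleases Exosc10 and Dis3 and the debranching enzyme Dbr1, which opens the intron lariats from which most snoRNAs are released.

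The enrichment tables deposited with the series count genes with a peak by annotation. None of the 26 members appeared in any KEGG or GO gene list. In the authors' deposited table for KEGG, ribosome biogenesis had 42 listed of 83 background genes, with a deposited p-value of 5.78e-07 and a corrected value of 3.29e-06. In the authors' deposited table for GO, snoRNA binding had 21 of 29 genes, the box H/ACA snoRNP complex 3 of 5, the box C/D snoRNP complex 3 of 7 and the Cajal body 26 of 51. The same authors' deposited table gave 11 of 24 genes for rRNA modification and 4 of 17 for pseudouridine synthesis, and its gene lists together hold 5409 distinct IDs, 26.0% of its background of 20770. The total of genes with a peak that it states is larger, 10022 or 48.3% of the background. It also exceeds the 9225 distinct listed IDs, so it cannot be a count of distinct listed genes. What it counts is not given, and how far these terms stand above the background was not tested. The GO p-values deposited for these terms are all 1 and cannot be interpreted.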

How the data were processed

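m6A-seq of 4 libraries (GR and control, m6A-IP and input, 1 each, 150 bp paired reads) was compared as deposited. The submitters' processing notes name mm10 as the build, with BWA 0.7.12 and HOMER 4.9.1 as tools. How differential peaks were called and how each was given a gene is not given in the sources used here. Where peaks are given to the nearest gene start, a peak in a host can be filed under a snoRNA gene inside it; the part of this in the lists was not tested. The gene table has no measurement. The authors' KEGG and GO tables hold deposited counts of genes and deposited p-values, which were copied, not recomputed.

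The members and gene lists were chosen with earlier results of these data known. The table deposits no symbol for any member, so symbols were looked up by Ensembl ID. Positions came from RefSeq (GRCm38.p6), whose genes were matched to gene IDs by symbol, or for 522 by a unique synonym (Snhg16 among them). Named are members with 3 or more lines, listed hosts, the 5 hosts with the most lines (ties included) and list genes with 3 or more lines; other genes are named in groups or were added after their values were seen. The planned same-strand rule for hosts could not be applied. The strand of a host was taken from RefSeq start windows (250 bases before to 50 after each start). Counting, host search and motif search used Python 3.11.15 and were tested on simulated data, and figures used Matplotlib 3.10.9. Depth is unknown, and no interval is given.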

Additional observations from a re-analysis of the deposited data

How the results depend on the processing

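The count of 26 listed genes became 0 with deposited symbols alone, 107 by RefSeq class (snoRNA or guide RNA) in place of the symbol and 11 with at least 2 lines, and the listed share became 9.36% with the RefSeq snoRNA class as denominator. The 5 listed hosts became 3 with at least 2 lines and 3 without ribosomal protein genes. The 40 lines became 26 when identical lines were counted once. All lines of a gene are identical, so this value was fixed in advance as the number of members. Without the near-identical pair of Snhg3, an alternative chosen after seeing the data, the share of hosts whose listed gene was the last was 100% (9 of 9). Snhg3 was the only exception, so leaving it out fixed this value in advance. Families counted once (22.2%), leaving out imprinted clusters (19.5%), a hand-written host list (4 hosts), protein-coding hosts only (18.5%) and, both chosen after seeing the data, any spanning gene (6 hosts) or unnamed models counted too (90.9%) moved the values less. Hosts on the same strand against either strand was not run, since strand is not in the RefSeq table used. No paired analysis was possible because each group has 1 library and no result comes from a test. Without values per library, neither depth nor RNA level could be set beside any gene, and near-identical copies such as Snora73a and Snora73b are uncertain.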

Other observations

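RefSeq also holds 948 unnamed gene models of the snoRNA or guide RNA class, of which 82 were listed (8.65%), below the 17.3% of named snoRNA genes and the 16.6% of all gene IDs. Of the 82, 56 had 1 line (68.3%) and 26 had 2 or more. Gm22299, a 136-base model on chromosome 15 that no gene spans, had 10 lines, over 3 times the highest value of a named snoRNA gene. Gm23816 had 5 lines and Gm22728, inside the stress granule gene G3bp2, had 4. A matched gene spanned 57 of the listed models, and it was listed itself for 19 (33.3%), against 227 of 432 (52.5%) for models not listed. These shares count models, and models that share a spanning gene are not independent. How many different genes span the 432 is not given here.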
